A study of Mus musculus with 9 samples.

Results

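The platelet-derived growth factor (PDGF) system was examined in fetal mouse prostate mesenchymal cells through its 4 ligand genes, Pdgfa, Pdgfb, Pdgfc and Pdgfd, and its 2 receptor genes, Pdgfra and Pdgfrb. They were taken by gene symbol, as the ligands and receptors of the family, and make up 6 of the 19938 genes measured. Each was represented by 1 probeset, so no choice between probesets was needed.

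The cells were urogenital sinus mesenchymal cells of male CD-1 fetuses at gestation day 17, the connective tissue from which the stroma of the prostate forms, separated from epithelium by settling and used at first passage. Cultures of all groups received 690 pM dihydrotestosterone (DHT), an androgen that is not converted to estrogen, first for 3 days in serum stripped of hormones and then for 4 days together with the treatment. The treatment was ethanol vehicle, 10 pM 17beta-estradiol (E2) or 100 pM E2, with 3 arrays in each of the 3 groups. Every comparison is therefore one of E2 added to DHT, and a culture without DHT was not analysed here. Nothing in the labels states that the 3 arrays of a group came from separate cultures or litters, so the p-values measure the spread between these arrays, which may be technical.

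PDGFs are secreted dimers that act on neighbouring cells, and in developing organs they are typically made by epithelium, endothelium or the mesenchyme itself and received by mesenchymal cells. The chains encoded by Pdgfa and Pdgfb can bind once they have been trimmed inside the cell, whereas those of Pdgfc and Pdgfd are secreted in a latent form, with a CUB domain that proteases must remove. The receptors are tyrosine kinases that pair when a dimer binds. The alpha receptor is bound by A, B and C chains, and the beta receptor mainly by B and D chains. Alpha receptor signaling drives growth of mesenchymal progenitors in many fetal organs, and the beta receptor is best known for the recruitment of pericytes and vascular smooth muscle.

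Over the 3 groups, 1 of the 6 genes differed in expression, Pdgfra, which encodes the alpha receptor (limma F test, adjusted p = 0.00384). Of all genes tested, 0.843% passed the same test. Pdgfra fell by 0.45 on the log2 scale at 100 pM E2 relative to vehicle and by 0.51 relative to 10 pM E2, while at 10 pM E2 against vehicle none of the 6 genes, and none of the 19938 measured, passed the test. Pdgfrb, the beta receptor, had nearly the same mean in the 3 groups. The ligand genes differed by smaller amounts, and none passed the test in any comparison.

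Promoter sequence is shown for Pdgfra, the member that passed the test, and for Pdgfd, the ligand gene with the largest difference between 100 pM E2 and vehicle among the 4. The windows hold the 250 bases before the RefSeq transcription start (GRCm38.p6, 5′ to 3′ on the gene's strand), at chr5:75152001-75152250 on the plus strand for Pdgfra and chr9:6168236-6168485 on the plus strand for Pdgfd. Capitals mark matches to the motifs searched.
Pdgfra: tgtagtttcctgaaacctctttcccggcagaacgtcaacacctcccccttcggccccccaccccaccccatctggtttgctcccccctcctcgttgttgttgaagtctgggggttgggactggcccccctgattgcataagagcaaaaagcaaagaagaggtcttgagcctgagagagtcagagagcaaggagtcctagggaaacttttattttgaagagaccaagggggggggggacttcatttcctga
Pdgfd: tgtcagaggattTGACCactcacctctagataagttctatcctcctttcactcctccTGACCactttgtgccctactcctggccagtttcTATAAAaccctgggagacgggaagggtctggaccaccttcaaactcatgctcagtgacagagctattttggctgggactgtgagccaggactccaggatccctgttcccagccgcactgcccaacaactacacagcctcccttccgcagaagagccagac
The motifs searched on both strands were the estrogen response element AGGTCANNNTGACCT, its half-site AGGTCA, the 5-letter core of that half-site GGTCA, the AP-1 site TGANTCA, the GC box GGGCGG and the TATA box TATAAA. The half-site and its core lie within the full element and overlap each other. The Pdgfra window, with 54.4% G and C, held none of these letter strings. The Pdgfd window, with 53.6% G and C, held 2 copies of the half-site core on the minus strand, which begin 238 and 193 bases before the start, and a TATAAA string that begins 160 bases before it. Among 32536 distinct promoter windows of the same length, 0.0215% held the full element, 14% the half-site, 35.3% its core, 6.73% the AP-1 string, 33.0% the GC box and 12.3% the TATA string. These matches describe the letters of the windows, and binding was not measured here. Of the 6 genes, 4 had a window in the RefSeq promoter table used, Pdgfa, Pdgfc, Pdgfd and Pdgfra.

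**Figure D1:**
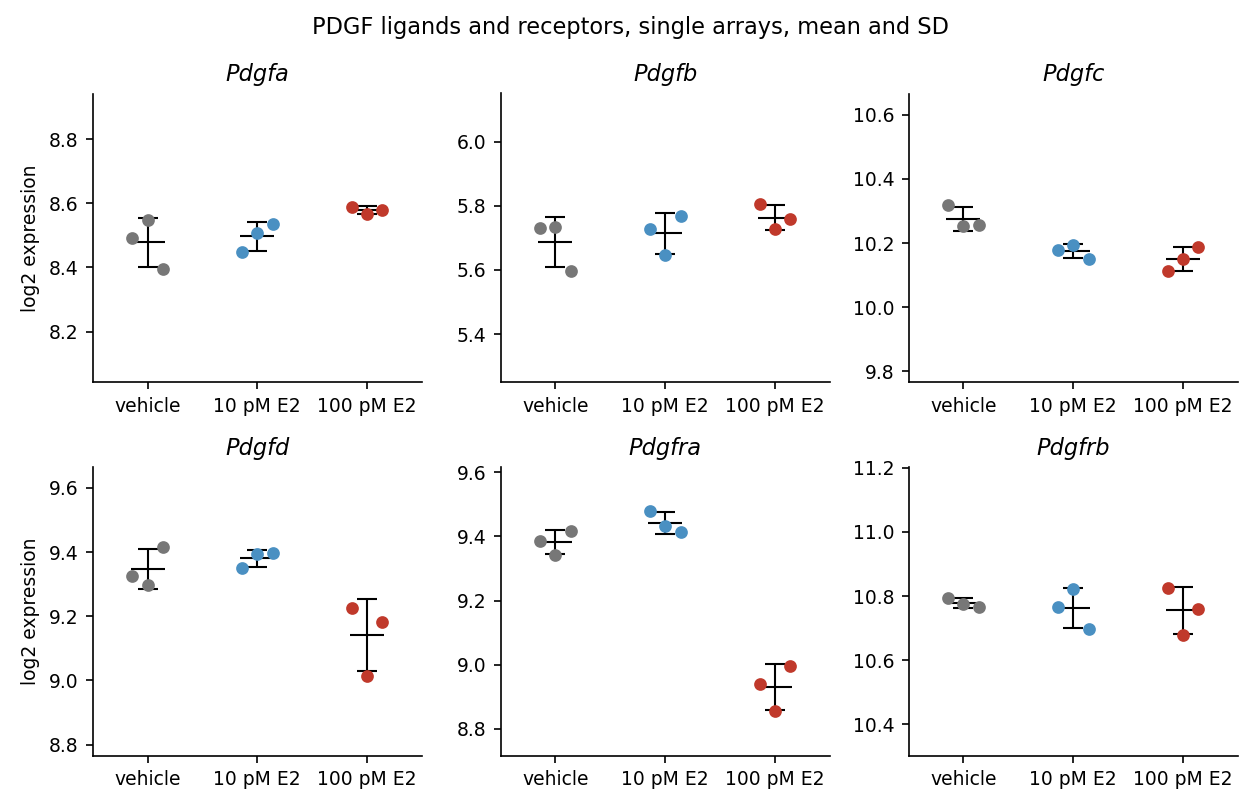
Log2 expression (y axis, each panel spanning 0.9 log2 units) of the 6 PDGF genes in vehicle, 10 pM E2 and 100 pM E2 cells (x axis). Points are single arrays, and bars give the mean and SD of 3 arrays; the 100 pM points of Pdgfra lie between 8.85 and 9.00, below all 6 other arrays.

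Pdgfra (probeset 10522503, on chromosome 5) had log2 expression values of 9.39, 9.34 and 9.42 in vehicle cells, 9.48, 9.43 and 9.41 in 10 pM E2 cells, and 8.94, 8.85 and 9.00 in 100 pM E2 cells. All 3 arrays at 100 pM E2 lay below all 6 other arrays, and the vehicle and 10 pM arrays overlapped. The mean was 8.93 ± 0.07 at 100 pM E2, against 9.38 ± 0.04 in vehicle cells (SD, n = 3 each), a difference of -0.45 ± 0.05 (SE; 95% interval -0.55 to -0.35). On the linear scale this was 0.731-fold, or a change of -26.9% (95% interval -31.8% to -21.6%). The limma adjusted p was 0.00359, and Pdgfra stood at rank 16 of the 19938 genes by p-value. At 100 pM E2, 1.13% of all genes passed the test against vehicle, 0.687% as lower and 0.446% as higher, so 1 of 6 PDGF genes was called against that background. In RNA from a whole culture, fewer cells that express a gene and less RNA per cell cannot be told apart.

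Against 10 pM E2, Pdgfra at 100 pM E2 was lower by a similar amount, with means of 8.93 ± 0.07 at 100 pM and 9.44 ± 0.03 at 10 pM (SD, n = 3 each). The difference was -0.51 ± 0.05 (SE; 95% interval -0.61 to -0.41), or 0.702-fold, with an adjusted p of 0.00413 and rank 5 of all genes. In this comparison 0.833% of genes passed the test, 0.607% lower and 0.226% higher at 100 pM. The comparison shares its 100 pM arrays with the one against vehicle, so the 2 are not independent. Both calls of Pdgfra were lost when only the groups compared were fitted, with adjusted p = 0.0527 against vehicle and 0.0572 against 10 pM E2 (limma).

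At 10 pM E2 the mean of Pdgfra was the highest of the 3 groups, but it exceeded the vehicle mean by only 0.06 ± 0.05 (SE; 95% interval -0.04 to 0.16; limma adjusted p = 1). No gene of the array passed the test at 10 pM E2 against vehicle (0 of 19938, 0%), and 705 had an unadjusted p below 0.05. The study asked about dose responses that are not monotonic, and for this the 10 pM mean was set against the mean of the vehicle and 100 pM groups. A difference at 100 pM E2 alone also moves this contrast, so it cannot by itself show a response that is not monotonic. Pdgfra was higher at 10 pM by 0.28 ± 0.04 (SE) in this contrast, at rank 4 of all genes, with an unadjusted p of 4.45e-05 and an adjusted p of 0.166. With a spread estimate that allows for expression level and outlying genes it passed the test, with adjusted p = 0.0384, where 6 of 19938 genes did. The vehicle and 10 pM arrays of Pdgfra overlapped, and the 100 pM arrays lay below both. In this contrast 0.00502% of all genes, 1 gene, passed the test, and none of the 6 PDGF genes did.

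Pdgfrb (probeset 10456046, on chromosome 18) had log2 values of 10.80, 10.77 and 10.77 in vehicle cells, 10.77, 10.82 and 10.70 in 10 pM E2 cells, and 10.83, 10.68 and 10.76 in 100 pM E2 cells. The 3 groups overlapped fully. The difference between 100 pM E2 and vehicle was -0.02 ± 0.05 (SE), and its 95% interval of -0.13 to 0.09 does not reach the difference measured for Pdgfra. Between 100 pM and 10 pM E2 it was -0.01 ± 0.05 (SE; 95% interval -0.12 to 0.10), a difference whose sign turned to 0.01 when each array was centred on its median.

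To compare the responses of the 2 receptors within each array, the log2 value of Pdgfrb was subtracted from that of Pdgfra and the vehicle mean of this difference was set to 0, a measure chosen after the values had been seen. It was -0.49, -0.43 and -0.37 in 100 pM E2 cells, against -0.01, -0.03 and 0.05 in vehicle cells. The 10 pM arrays had 0.11, 0.00 and 0.11. Relative to Pdgfrb, Pdgfra was thus lower by 0.43 at 100 pM E2 than in vehicle cells and by 0.50 than in 10 pM E2 cells. The two-sided exact permutation p was 0.1 for both, the smallest that 3 arrays against 3 allow. For 10 pM E2 against vehicle the difference was 0.07, with an exact permutation p of 0.2.

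**Figure D2:**
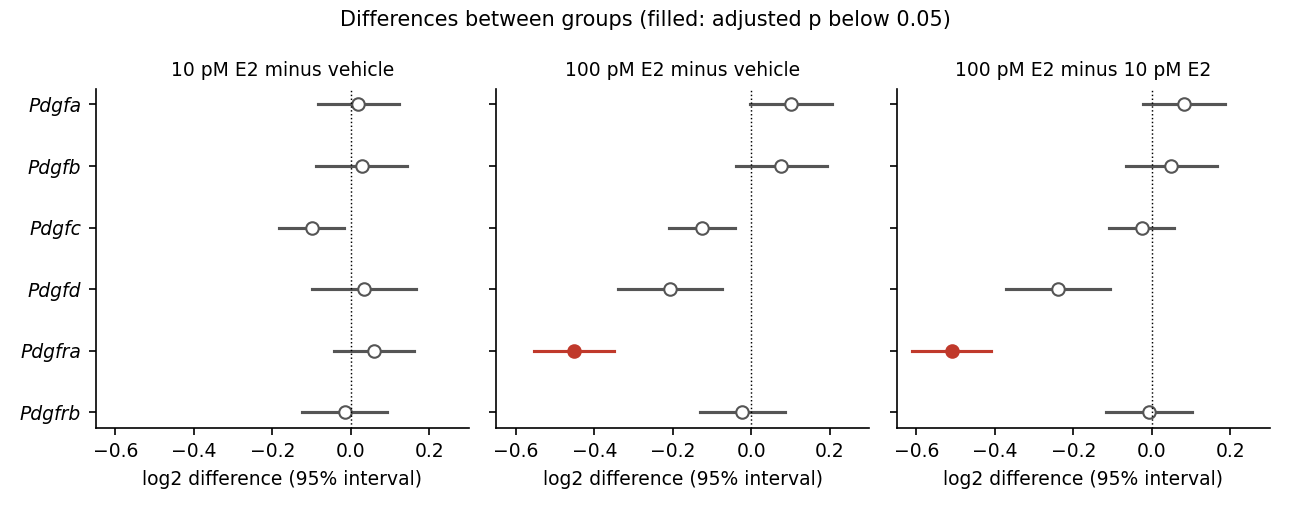
Log2 differences with 95% intervals (x axis) for the 6 genes (y axis) in 3 comparisons, from the limma fit over all 9 arrays; filled red points passed an adjusted p of 0.05. Only the Pdgfra points at -0.45 and -0.51, in the 2 comparisons that involve 100 pM E2, are filled.

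Among the ligands, Pdgfd (probeset 10583021, on chromosome 9), whose chain forms the latent ligand of the beta receptor, had log2 values of 9.33, 9.30 and 9.42 in vehicle cells, 9.35, 9.40 and 9.40 in 10 pM E2 cells, and 9.23, 9.01 and 9.18 in 100 pM E2 cells. The 100 pM arrays all lay below the other 6, and replicate 2 of that group was the lowest. The difference from vehicle was -0.21 ± 0.06 at 100 pM E2 (SE; 95% interval -0.34 to -0.07), with an unadjusted p of 0.00648 in the limma fit and an adjusted p of 0.193. From 10 pM E2 it was -0.24 ± 0.06 (SE), with an adjusted p of 0.142. The difference from vehicle was -0.14 without replicate 2 of the 100 pM group. Pdgfd did not pass the test over all genes in either comparison.

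Pdgfc (probeset 10492689, on chromosome 3), which encodes the latent ligand chain of the alpha receptor, had log2 values of 10.32, 10.25 and 10.26 in vehicle cells, 10.18, 10.20 and 10.15 in 10 pM E2 cells, and 10.11, 10.15 and 10.19 in 100 pM E2 cells. Here the 10 pM arrays as well as the 100 pM arrays lay below all vehicle arrays. The share of all genes without overlap between 10 pM E2 and vehicle is not given here, so this describes the arrays only. The differences from vehicle were -0.10 ± 0.04 at 10 pM E2 (SE; limma adjusted p = 1, unadjusted p = 0.0235) and -0.13 ± 0.04 at 100 pM E2 (SE; adjusted p = 0.209, unadjusted p = 0.00762). The doses differed from each other by -0.03 ± 0.04 (SE, 100 pM minus 10 pM). Pdgfc was the only PDGF gene with an unadjusted p below 0.05 at 10 pM E2 against vehicle, beside 705 of the 19938 genes tested.

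Pdgfa (probeset 10535043, on chromosome 5) encodes the chain that is the classical ligand of the alpha receptor. Its log2 values were 8.49, 8.55 and 8.39 in vehicle cells, 8.45, 8.51 and 8.54 in 10 pM E2 cells, and 8.59, 8.57 and 8.58 in 100 pM E2 cells. The 100 pM arrays lay close together and just above all others. The difference at 100 pM E2 was 0.10 ± 0.05 from vehicle (SE; 95% interval 0.00 to 0.20; limma adjusted p = 0.474) and 0.08 ± 0.05 from 10 pM E2 (SE; adjusted p = 0.611).

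Pdgfb (probeset 10430660, on chromosome 15), whose chain binds both receptors, was the only member with a signal below the array medians, at the 35.5th percentile of the genes tested. It had 5.73, 5.73 and 5.60 in vehicle cells, 5.73, 5.65 and 5.77 in 10 pM E2 cells, and 5.80, 5.73 and 5.76 in 100 pM E2 cells. The groups overlapped, and the difference between 100 pM E2 and vehicle was 0.08 ± 0.05 (SE; limma adjusted p = 0.651). The other 5 genes stood between the 83.2th and the 98.2th percentile of signal. Probes differ in how brightly they hybridise, so a percentile of signal is only a rough guide to a gene's level.

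Counting array by array, the groups did not overlap for 4 of the 6 genes between 100 pM E2 and vehicle, 3 lower (Pdgfra, Pdgfd and Pdgfc) and 1 higher (Pdgfa), where 12.5% of all genes did not overlap. Between 100 pM and 10 pM E2 this held for 3 of the 6, Pdgfra, Pdgfd and Pdgfa, against 12.3% of all genes. The median difference of the 6 genes was -0.07 at 100 pM E2 against vehicle and 0.02 at 10 pM E2 against vehicle, beside 0.005 over all genes in each.

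Joint variation over arrays was read for the 15 pairs of PDGF genes. Over all 9 arrays, as first planned, 1 of the 15 pairs had an adjusted p below 0.05 for r and 0 for rho. This was Pdgfra with Pdgfd (r = 0.911, adjusted p = 0.0134, and rho = 0.833, adjusted p = 0.062, exact permutation tests). In the plot of these 2 genes the 3 arrays at 100 pM E2 lay apart from the other 6 on both axes. A difference between groups alone can give such an r. After this was seen, correlations were taken over the 6 vehicle and 10 pM arrays for every pair. Over these 6 arrays none of the 15 pairs had an adjusted p below 0.05 for r or rho. The smallest were 0.616 and 0.699 in exact permutation tests. Pearson's r between Pdgfra and Pdgfd was 0.517 (exact permutation p = 0.308) and Spearman's rho was 0.486 (exact p = 0.356). With the group means removed, r over all 9 arrays was 0.688, given as a description. Pdgfa and Pdgfb had r = 0.684 (exact permutation p = 0.135) and rho = 0.771 (exact p = 0.103), and Pdgfa and Pdgfra had r = -0.537 (exact p = 0.271) and rho = -0.6 (exact p = 0.242). Without the 2 arrays farthest from the median of Pdgfd, r between Pdgfd and Pdgfra was -0.932, and without the 2 farthest from the median of Pdgfa, r was 0.432 with Pdgfb and -0.448 with Pdgfra. These last values rest on 4 arrays each, too few to read a relation from.

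**Figure D3:**
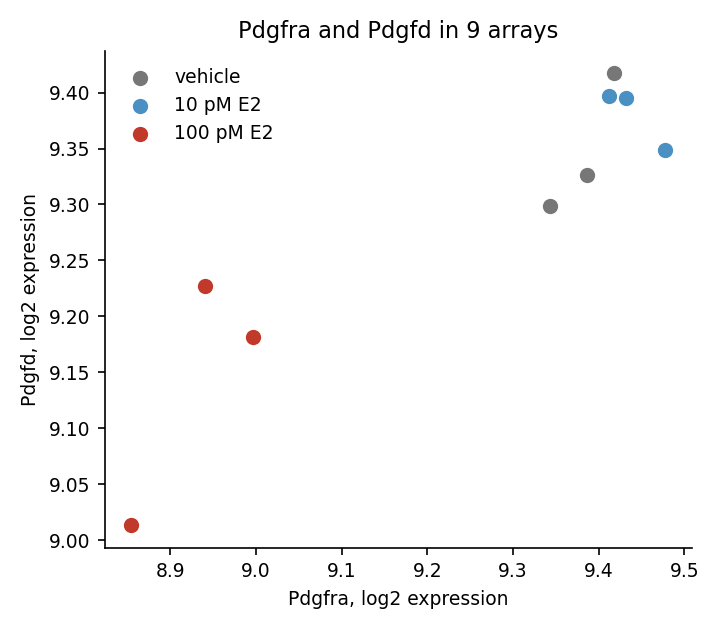
Log2 expression of Pdgfra (x axis) and Pdgfd (y axis) in each of the 9 arrays, coloured by dose of E2. The 3 arrays at 100 pM E2 lie at the lower left, with Pdgfra at 9.00 or less and Pdgfd at 9.23 or less, and the vehicle and 10 pM arrays lie together at the upper right.

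The genes with the pattern most like that of Pdgfra were sought by Pearson's r over the 9 arrays among 5942 genes whose values had an SD of at least 0.1. The 5 closest were Serping1, an inhibitor of complement C1 (r = 0.994), Lrat, which esterifies retinol (r = 0.991), Igfbp2, a binding protein of insulin-like growth factors (r = 0.987), Fmo1, a flavin monooxygenase (r = 0.986), and Cdc42ep3, an effector of the GTPase Cdc42 (r = 0.985). With the group means removed, r was 0.887, 0.745, 0.602, 0.841 and 0.757 in the same order. The 5 genes were picked for the highest r over these same arrays, which raises these values too, so they are no separate evidence of likeness. Each r over the 9 arrays rests largely on the 3 arrays at 100 pM E2, which lay apart from the other 6 for Pdgfra. Pdgfd stood at rank 165 by the same measure.

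Genes related to PDGF signaling were read next, starting with those that act on the ligands outside the cell. Of 8 proteases that process growth factor precursors, 1 passed the test at 100 pM E2 against vehicle. This was Plau, the urokinase that can activate the D chain, higher by 0.37 ± 0.06 (SE; limma adjusted p = 0.0292), a call lost under 9 of 19 alternative settings. Pcsk6, a proprotein convertase, differed by -0.28 (adjusted p = 0.155), and Plat, the tissue plasminogen activator that cleaves the C chain, by -0.16 (adjusted p = 0.278), and neither passed. Pcsk6 and Plat were chosen after their values were seen. The median of the 8 was 0.006, beside 0.005 over all genes.

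Of 7 genes for proteins that bind PDGFs or assist their receptors, 2 fell at 100 pM E2 relative to vehicle. A2m, alpha-2-macroglobulin, a protease inhibitor that also binds PDGF B chains in plasma, fell by 0.72 ± 0.08 (SE; limma adjusted p = 0.00399), and by 0.71 relative to 10 pM E2 (adjusted p = 0.00764). Both calls of A2m were lost when only the groups compared were fitted, with adjusted p = 0.0527 and 0.0851. Pdgfrl, a protein without a kinase domain that resembles the ligand-binding part of the receptors, fell by 0.36 ± 0.07 (SE; adjusted p = 0.0384). The call of Pdgfrl was lost under 11 of 19 alternative settings, and its adjusted p over all 19 ran from 0.0142 to 0.155. The median of the 7 genes was 0.02 and 4 of them were higher at 100 pM E2. Among 12 genes of the related type III receptors, of their ligands, and of the VEGF ligands with Pgf, none passed the test. Kitl had 5.38 on every array, so it could not pass. An unadjusted p below 0.05 was found for 3 of these 12 genes, beside 2164 of the 19938 genes tested. The smallest p-values belonged to Csf1, the ligand of the macrophage receptor kinase (0.23 ± 0.07, SE; adjusted p = 0.203), and Vegfa, the vascular growth factor (-0.20 ± 0.06, SE; adjusted p = 0.225).

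Inside the cell, none of 30 measured transducers of receptor signals, of 35 listed, passed the test at 100 pM E2 against vehicle. An unadjusted p below 0.05 was found for 3 of the 30, also beside 2164 of 19938 genes. Their differences ran from -0.13 to 0.14, with a median of -0.02. The smallest p-values were those of Pik3cb, a catalytic subunit of PI3 kinase (0.11 ± 0.03, SE; limma adjusted p = 0.207), and Map2k2, a kinase of the ERK cascade (0.14 ± 0.05, SE; adjusted p = 0.318). Of 18 measured attenuators of the signal, of 19 listed, Spry2, which is induced by receptor tyrosine kinase signals and dampens them, rose by 0.27 ± 0.05 (SE; adjusted p = 0.0402), a call that 10 of 19 alternative settings removed. Of 25 genes that growth factors induce in fibroblasts, Ccnd1, the cyclin of early cell cycle entry, rose by 0.44 ± 0.05 relative to vehicle (SE; adjusted p = 0.00359) and by 0.37 relative to 10 pM E2 (adjusted p = 0.0097). Ccl2, a chemokine induced by PDGF in fibroblasts, was lower at 100 pM than at 10 pM E2 by 0.66 ± 0.09 (SE; adjusted p = 0.0146). Relative to vehicle, Ccl2 differed by 0.38 at 10 pM E2 and by -0.28 at 100 pM E2, and neither difference passed the test. Of 19 alternative settings, the call of Ccnd1 was lost under 1 against vehicle and under 4 against 10 pM E2, and that of Ccl2 under 6. Many of these genes also answer to other growth factors and to hormones. At 10 pM E2 against vehicle none of the genes in these 6 lists passed the test.

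**Figure D4:**
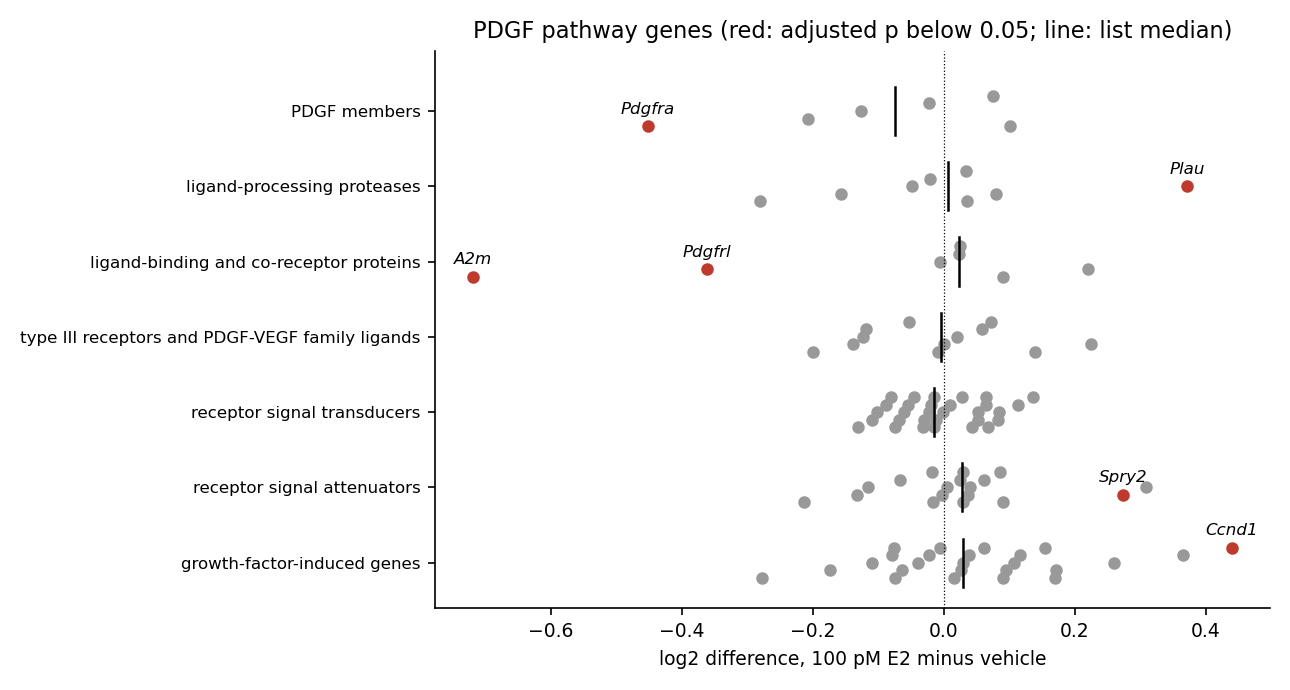
Log2 differences between 100 pM E2 and vehicle (x axis) for the PDGF genes and 6 lists of genes related to PDGF signaling (y axis). Each point is 1 gene, red where the limma adjusted p was below 0.05, and the black line is the list median; the largest fall is A2m at -0.72 and the largest rise is Ccnd1 at 0.44.

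Markers were read to check the cell type and what moved beside Pdgfra. Of the 11 mesenchymal and fibroblast markers measured, of 12 listed, 10 had signals above the array medians, with Vim at the 99.9th percentile of the genes tested, Lum at the 82.2th and S100a4, the exception, at the 32.7th. Of 12 markers each, 7 epithelial, 7 endothelial and 9 macrophage markers had signals below the array medians, among them Epcam and Krt5, Pecam1 and Cdh5, and Ptprc and Adgre1. The array medians, taken over all probesets, lay between the percentiles of Vwf (42.1th) and Cldn5 (46.3th) among the genes tested. A large share of all genes thus lay below them, and these counts alone do not show a cell type to be absent. Epithelial, endothelial and macrophage markers whose mean over all arrays lay above the array medians included Krt18 (66.4th percentile) and Cldn3 (57.3th), Flt1 (81.1th) and Kdr (66.7th), and Cd68 (50.4th), C1qa (49.7th) and Lyz2 (47.4th). In 100 pM E2 cells alone Lyz2 had 5.77, 5.55 and 6.17, beside array medians of 6.17 to 6.20. The markers named here by signal were picked after their values were seen. The mean log2 signal of the macrophage list was 5.46 to 5.49 in 100 pM E2 cells, against 5.66 to 5.79 in vehicle cells, with all 12 genes lower at 100 pM and 1 called, C1qb (-0.51, limma adjusted p = 0.0433). That of the 11 mesenchymal markers was 10.85 to 10.89 at 100 pM E2 and 10.93 to 10.97 in vehicle cells. Of these 11 genes, 7 were lower at 100 pM E2 and 4 higher, none of the latter called. Their median difference was -0.014, beside 0.005 over all genes. In this list 4 genes of the fibroblast matrix fell, namely Lum (-0.41, adjusted p = 0.0384), Postn (-0.40, 0.0242), Dcn (-0.25, 0.0421) and Col3a1 (-0.18, 0.0469). These calls were lost under 10, 7, 12 and 14 of 19 alternative settings in the same order, and that of C1qb under 11. The part of these shifts in the fall of Pdgfra was not tested.

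The other marker lists gave 1 call in 12 pericyte and smooth muscle markers, Rgs5, a regulator of G protein signaling that marks pericytes, which rose by 0.47 (limma adjusted p = 0.00399). The mean signal of this list was 9.61 to 9.66 at 100 pM E2 and 9.62 to 9.65 in vehicle cells. Among 12 endothelial markers Kdr, a receptor of VEGF, fell by 0.98 (adjusted p = 0.00359) and Emcn, an endothelial sialomucin, rose by 0.82 (adjusted p = 0.00399), and the list mean was 6.23 to 6.25 against 6.26 to 6.33. No epithelial marker passed the test against vehicle, and the list mean was 6.01 to 6.14 at 100 pM E2 against 5.96 to 6.03 in vehicle cells. Krt18, an epithelial keratin, was higher at 100 pM than at 10 pM E2 by 0.57 (adjusted p = 0.0428), a call lost under 10 of 19 settings. The calls of Rgs5, Kdr, Emcn and Pgr against vehicle were each lost under 1 of 19 settings, the fit of only the groups compared, with adjusted p-values of 0.0527 to 0.0607. As a check of the hormone response, Pgr, the progesterone receptor gene and a direct estrogen target in many tissues, rose by 1.04 ± 0.11 at 100 pM E2 (SE; adjusted p = 0.00359) and differed by 0.46 ± 0.11 at 10 pM E2 (SE; adjusted p = 1). Esr1, the gene of estrogen receptor alpha, differed by 0.21 ± 0.05 at 100 pM E2 (SE; adjusted p = 0.0997).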

How the data were processed

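Values came from Affymetrix Mouse Gene 1.0 ST arrays. The deposited table holds 1 log2 expression value per probeset and array, which the authors made from scanned images with the Affymetrix GCOS and Expression Console software. The normalization method is not given in the sources used here, and the log2 scale was read from the values: the array medians lay between 6.17 and 6.20, and genes were not centred. Scanner files were not used here, so background level and saturation were not checked, and precision is limited by having 3 arrays a group.

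Of 35556 probesets, the platform annotation gives 21789 a single gene symbol and 1621 several symbols. Probesets with several symbols were not used by name, and a further 12146 are unnamed here. The probeset of highest mean was kept for each of 19938 genes, with no filter on dim probesets. Entrez identifiers of 21698 named probesets matched the RefSeq gene table.

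The limma package (version 3.58.1, R 4.3.3) fitted a mean for each of the 3 groups over the 9 arrays together, with lmFit and default eBayes. Calls use a two-sided Benjamini-Hochberg adjusted p below 0.05 over all genes, and intervals are 95% intervals. The difference over all 3 groups used the moderated F test. Correlations used exact permutations. The fit was tested on simulated data. Arrays of the same group correlated at r of 0.9974 to 0.9982 and of different groups at 0.9963 to 0.9982, and none were identical.

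The 6 genes, the gene lists (174 entries, 167 measured) and the rule for named genes were chosen with earlier results of these data known. Named were all 6 genes, called genes of each list (at most 5, or else the 2 of smallest p), Pgr, Esr1, and the 5 genes most like Pdgfra. Alternatives tried were median centring, quantile normalization, no dim genes, all probesets, averaged probesets, eBayes with trend and robust, array weights, a replicate block, the compared groups alone, one-way analysis of variance, an adjusted p below 0.10, and leaving out each array. The adjusted p below 0.10 was applied to the main fit, so it could not remove a call in the counts of settings. The analysis of variance at an unadjusted threshold, the receptor difference and the correlations over 6 arrays were added after seeing the data. Figures were drawn with matplotlib 3.10.9.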

Additional observations from a re-analysis of the deposited data

How the results depend on the processing

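Against vehicle, the difference of Pdgfra at 100 pM E2 kept its direction under all 19 alternatives (-0.48 to -0.41) and its call under 18 of them. Against 10 pM E2 the same counts held (-0.54 to -0.47). The exception in both was a fit of only the compared groups, under which the count of PDGF genes called was 0. The count over all genes under that fit is not given here. Against vehicle the calls of A2m, Rgs5, Kdr, Emcn and Pgr were lost under it as well. For A2m, Rgs5 and Pgr the limma adjusted p was 0.0527, the same as for Pdgfra. The loss was thus not particular to Pdgfra. The alternative at an adjusted p below 0.10 used the main fit again, so it could neither change a direction nor remove a call. The F test count was 0 under the methods' one-way analysis of variance after adjustment, where Pdgfra had an adjusted p of 0.0645. The count over all genes after that adjustment is not given here. The study itself reports that its effects at the low doses were lost on such a correction. The F test count was 2, Pdgfra and Pdgfc, at that analysis's own unadjusted threshold of 0.01, which 2.66% of all genes passed. The cause was not tested. In the non-monotonic contrast, which a fall at 100 pM E2 alone also moves, the count was 1 with eBayes trend and robust. This was Pdgfra, beside 6 of the 19938 genes tested. The difference of Pdgfrb between 100 pM and 10 pM E2 became 0.005 with median centring.

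Leaving out 1 array at a time turned the sign of small differences. At 10 pM E2 against vehicle these ran from -0.022 to 0.054 for Pdgfa, -0.019 to 0.061 for Pdgfb and -0.046 to 0.017 for Pdgfrb. For Pdgfrb they ran from -0.059 to 0.015 at 100 pM E2 against vehicle, from -0.043 to 0.031 at 100 pM against 10 pM E2, and from -0.034 to 0.028 in the non-monotonic contrast. For Pdgfb in that contrast they ran from -0.039 to 0.023.

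The deviations of same-numbered arrays from their group means correlated at r of -0.11 to 0.20, over 0.1 in 1 of 9 pairs. Differently numbered arrays are not set beside them here, so this does not settle whether the replicate numbers pair the arrays. With the replicate number as a block, the count of PDGF genes called stayed at 1 for 100 pM E2 against vehicle and against 10 pM E2 (Pdgfra adjusted p = 0.00767 and 0.00973), 1 in the F test and 0 in the other contrasts. Of the 19938 genes, the block fit called 168 at 100 pM E2 against vehicle, 133 against 10 pM E2 and 122 in the F test. Under the block Pdgfrl was not called (adjusted p = 0.063).

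Over all genes, 226 were called at 100 pM E2 against vehicle. This count was 119 with all probesets tested, 349 with eBayes trend and robust, 343 without the dimmest 30% of genes, and 88 to 259 without 1 array. Against 10 pM E2, 166 were called, and 30, 284, 291 and 30 to 178 in the same order. The F test called 168, and 65, 308, 310 and 85 to 176. With 3 arrays a group, Pdgfd's differences (-0.21 and -0.24) did not pass the test over all genes. Size alone did not set this, since against vehicle Col3a1 passed at -0.18 ± 0.03 (SE), where Pdgfd had an SE of 0.06.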

Other observations

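The genes on both sides of Pdgfra on chromosome 5 were read as well, a choice made after the values had been seen. Of the 4 protein-coding neighbours on each side, all 8 were measured, and 1 passed the test at 100 pM E2 against vehicle. This was Kdr, the second gene beyond Pdgfra, which fell by 0.98 ± 0.10 (SE; limma adjusted p = 0.004). Kit, a receptor of the same type III family that lies between Pdgfra and Kdr, differed by 0.07 ± 0.05 (SE; adjusted p = 0.657). The other 6, Fip1l1, Lnx1, Chic2, Gsx2, Srd5a3 and Tmem165, differed by -0.104 to -0.004, with adjusted p-values of 0.412 to 0.985. At 10 pM E2 against vehicle all 8 had an adjusted p of 1, and Kdr differed by -0.12.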
